A study of Mus musculus with 6 samples.

Results

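The CXC chemokines analysed here are 10 secreted or membrane-tethered chemokine genes, namely Cxcl1, Cxcl2, Cxcl3, Cxcl5, Cxcl9, Cxcl10, Cxcl11, Cxcl13, Cxcl16 and Pf4. They were taken by gene name from the 54532 gene rows of a deposited expression table, and all 10 names were found. All 10 passed the filter on low values that was applied before testing (a mean of at least 1 FPKM over the 6 libraries, FPKM being fragments scaled by gene length and library depth), which 9794 genes passed.

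The RNA came from peritoneal macrophages of C57BL/6J mice aged 6 to 8 weeks, labelled wild type. Per the study's methods, cells were collected by lavage 5 days after injection of 3% thioglycolate, which draws macrophages into the peritoneal cavity, and were cultured overnight. Control cells received no treatment. Model cells were exposed to lipopolysaccharide (LPS, 500 ng/mL), the bacterial ligand of TLR4, for 5.5 h and to ATP (2 mM), an activator of the NLRP3 inflammasome, for a further 0.5 h. MUS cells were exposed to LPS and ATP in the same way but were also given 50 μM muscone, the macrocyclic ketone of musk, 5 h after LPS and 0.5 h before ATP. No group received LPS alone, ATP alone or muscone alone, so the contributions of LPS and ATP in Model vs. Control cannot be told apart, and a vehicle for muscone is not named in the labels. Each group had 2 libraries, replicate 1 in batch 1 and replicate 2 in batch 2 of the sample labels. The labels do not say whether these were separate cultures or animals, so p-values measure only the spread between libraries, which may be technical.

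CXC chemokines are small proteins with a residue between their first cysteines, and they guide leukocytes through G protein-coupled receptors. Members with a Glu-Leu-Arg motif (Cxcl1, Cxcl2, Cxcl3 and Cxcl5) act through CXCR2 and recruit neutrophils. Cxcl9, Cxcl10 and Cxcl11 are classic interferon-induced ligands of CXCR3 on activated T and NK cells. Cxcl13 guides B cells through CXCR5, Cxcl16 is a membrane-anchored ligand of CXCR6 that can be shed, and Pf4 (platelet factor, also called Cxcl4) is best known from platelet granules. In macrophages, LPS acts on many of these genes through NF-κB and, by way of IRF3 and type I interferon, through interferon-responsive transcription factors.

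The libraries held 15526321 to 17135442 fragments on genes, recovered from FPKM times gene length. Genes with a fragment numbered 24906 in Model replicate 1 and 17406 to 19200 in the other libraries, a difference whose cause was not tested. All 6 macrophage markers passed the filter, from Mertk (11.3 to 45.9 FPKM) and Itgam (26.7 to 39.2 FPKM) to Lyz2, lysozyme (7275 to 12007 FPKM), and Csf1r was at 208 and 272 FPKM in Control but 83.4 to 105 FPKM in Model and MUS. Pearson's r between the libraries of a group, taken across genes, which are not independent replicates, was 0.924 for the Control pair, 0.944 for the Model pair and 0.981 for the MUS pair (log2 of FPKM + 1). The Control libraries stood apart from each other for the chemokines, and replicate 2 held more than replicate 1 for 9 of the 10 members, the exception being Cxcl11, which was at 0 in both, as it did for 53.2% of all tested genes. The per-million scale behind the deposited values was 1.45 and 1.34 times the fragment total in Control but 0.909 to 0.998 times in Model and MUS. Rescaling to the fragment totals moved the median log2 fold change of all tested genes in Model vs. Control from 0.04 to -0.40.

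In Model vs. Control, 8 of the 10 members rose, namely Cxcl1, Cxcl2, Cxcl3, Cxcl5, Cxcl9, Cxcl10, Cxcl11 and Cxcl16, and Cxcl13 and Pf4 did not pass the test. Together the 10 members held 153 and 777 FPKM in the Control libraries, 9295 and 5441 FPKM in Model, and 6819 and 5441 FPKM in MUS. Of all fragments on genes they thus took 0.0335% and 0.199% (Control), 1.85% and 1.18% (Model), and 1.40% and 1.18% (MUS). In MUS vs. Model, none of the 10 members passed the test. DEGs were genes whose Benjamini-Hochberg adjusted p was at most 0.05 and whose log2 fold change lay beyond 1 in either direction, with limma fitted to log2(FPKM + 1) over all tested genes. The share of all tested genes that were DEGs in the upward direction was 9.5% in Model vs. Control, and 5.56% were DEGs in the downward direction, among them none of the members. This balance depended on the scaling, with 930 genes upward and 545 downward on the deposited scale, 646 and 1554 with fragment-total scaling, and 684 and 2050 with voom on fragments. The median log2 fold change of the members was 2.11, with a range of 0.46 to 8.47, against 0.04 for all tested genes. Both libraries of Model lay above both of Control for the same 8 members, as they did for 32.6% of all tested genes. For any 1 gene, the smallest two-sided p that exact permutation of 2 and 2 libraries allows is 0.333.

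**Figure D1:**
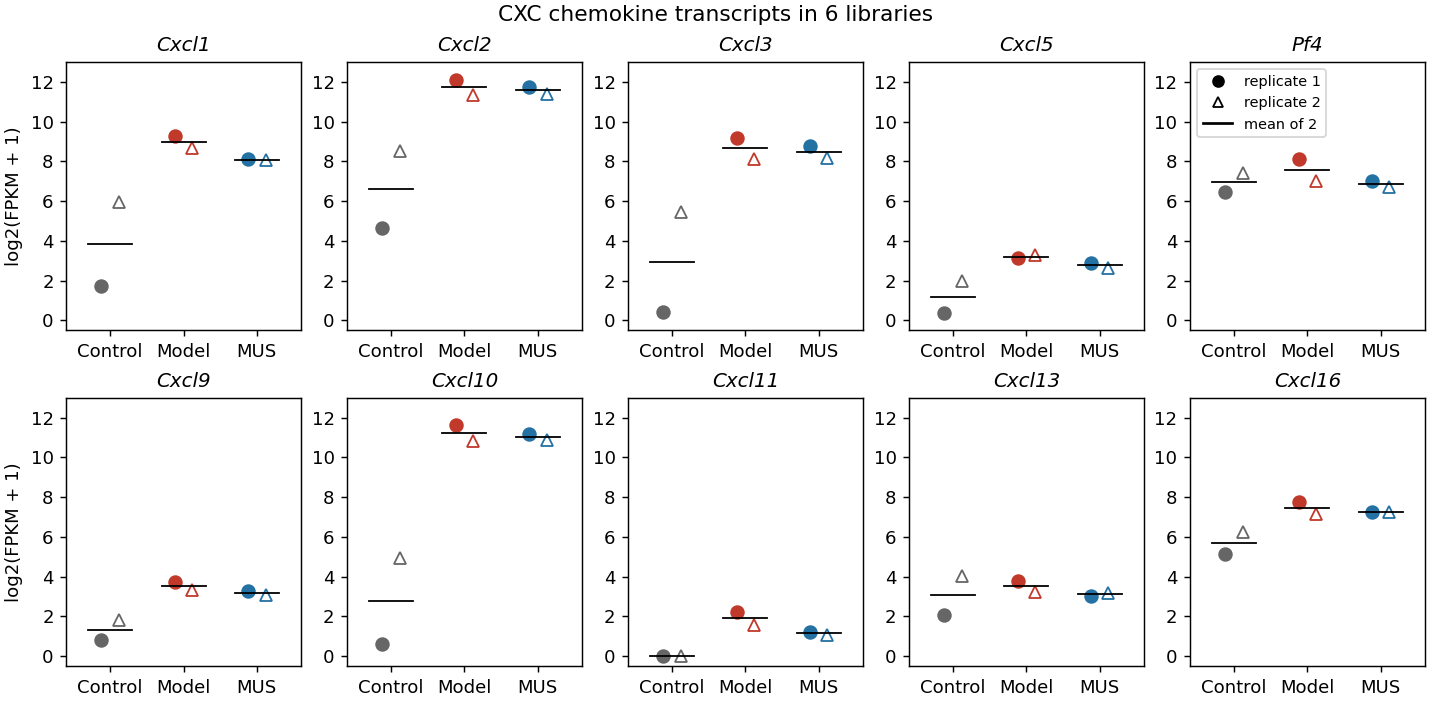
Level of each member as log2(FPKM + 1) in the 6 libraries, with replicate 1 as a filled circle, replicate 2 as an open triangle and the mean of the 2 as a line. The Control replicates lie far apart for Cxcl1, Cxcl2, Cxcl3 and Cxcl10, and both stay below Model and MUS for 8 members but not for Pf4 and Cxcl13.

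Cxcl2, a CXCR2 ligand that recruits neutrophils, was the member with the highest mean FPKM in each of the 3 groups. It lies at chr5:90903871-90905938 on the plus strand (ENSMUSG00000058427, GRCm38). Its level was 24.3 and 374 FPKM in Control, 4421 and 2639 FPKM in Model, and 3492 and 2729 FPKM in MUS. Both Control libraries were below all 4 stimulated libraries, and the MUS libraries lay between those of Model. Model exceeded Control by a log2 fold change of 5.13 (SE 1.11, limma adjusted p = 0.0241). Within batches, the Model level was 182 times the Control level in batch 1 and 7.06 times in batch 2.

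Cxcl1, known in mice as KC, lies just before Cxcl2 at chr5:90891241-90893115 (plus strand, ENSMUSG00000029380). It was at 2.38 and 61.2 FPKM in Control, 629 and 412 FPKM in Model, and 275 and 266 FPKM in MUS. Here the 3 groups were separate, with Control lowest, MUS in the middle and Model highest. Cxcl1 rose in Model by a log2 fold change of 5.14 (SE 1.17, limma adjusted p = 0.0277).

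Cxcl3, also called DCIP-1, which shares CXCR2 with the former, lies at chr5:90786103-90789600 (plus strand, ENSMUSG00000029379). Its values were 0.325 and 43.7 FPKM in Control, 572 and 282 FPKM in Model, and 430 and 284 FPKM in MUS. Of the 10 members it had the widest gap between the Control libraries, where replicate 2 was 134 times replicate 1. Model was higher than Control by a log2 fold change of 5.71 (SE 1.42, limma adjusted p = 0.0353). The 3 genes thus had log2 fold changes between 5.13 and 5.71 in Model vs. Control, with standard errors above 1.

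These 3 genes, which lie in the same cluster on chromosome 5, share a short promoter word, shown here because they changed together. The stretches run 5′ to 3′ from base -110 to base -31 of the RefSeq start (GRCm38.p6, plus strand), at chr5:90891135-90891214 for Cxcl1, chr5:90903789-90903868 for Cxcl2 and chr5:90785991-90786070 for Cxcl3. Capitals mark the 9-base word GGAATTTCC, a κB-type sequence.
Cxcl1: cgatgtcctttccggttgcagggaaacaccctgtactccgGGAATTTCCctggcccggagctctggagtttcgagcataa
Cxcl2: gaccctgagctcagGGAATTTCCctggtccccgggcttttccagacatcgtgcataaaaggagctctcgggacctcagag
Cxcl3: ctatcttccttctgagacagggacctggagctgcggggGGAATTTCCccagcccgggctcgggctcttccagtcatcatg

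The word spans bases -70 to -62 in Cxcl1, -96 to -88 in Cxcl2 and -72 to -64 in Cxcl3. On either strand it occurred in 0.317% of 32851 promoters of 300 bases, which run from 250 bases before to 50 bases after the start. In each of the 3 genes it lies inside a match to the longer NF-κB consensus, which 4.51% of these promoters held. The 29 bases centred on the word were set side by side, so the 9 bases of the word matched by construction. With these included, Cxcl1 and Cxcl2 were identical at 22 positions, Cxcl1 and Cxcl3 at 19, and Cxcl2 and Cxcl3 at 17. A match describes letters only and shows no binding.

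Cxcl5, the remaining neutrophil-recruiting member, lies at the other end of the same gene cluster, at chr5:90759360-90761624 (plus strand, ENSMUSG00000029371). It was far less abundant than its relatives, at 0.282 and 2.96 FPKM in Control, 7.76 and 8.76 FPKM in Model, and 6.53 and 5.32 FPKM in MUS. It was the only member for which Model replicate 2 exceeded replicate 1. The groups did not overlap, and Cxcl5 rose in Model by a log2 fold change of 2.04 (SE 0.48, limma adjusted p = 0.0303).

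Cxcl5, Pf4, Cxcl3, Cxcl1 and Cxcl2 lie within 146.6 kb that also hold Ppbp and Cxcl15, a CXC ligand known from lung, among 11 gene rows of the table. Ppbp, a platelet chemokine gene next to Pf4, stayed between 0.131 and 0.404 FPKM over the 6 libraries. Cxcl15 had 0 fragments in 5 libraries and 1 fragment in MUS replicate 2. Gm22816, an rRNA-type gene beside Cxcl1, reached 4.24 FPKM in Model replicate 1 and 4.52 FPKM in MUS replicate 1, from 7 and 8 fragments. The silent or nearly silent genes were therefore interspersed with genes that differed between Control and Model.

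**Figure D2:**
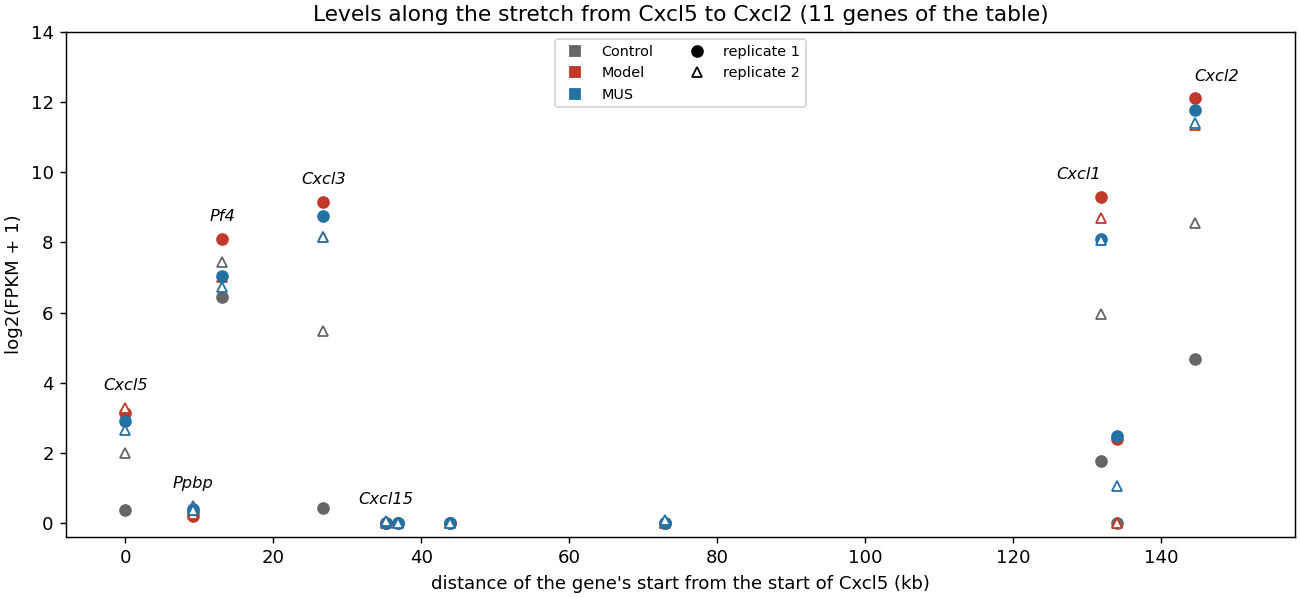
Level as log2(FPKM + 1) of the 11 genes from Cxcl5 to Cxcl2 in the 6 libraries, against the distance of each gene's start from that of Cxcl5 in kb, with colours for groups and symbols for replicates. Cxcl3, Cxcl1 and Cxcl2 show the wide gap between Control and the stimulated libraries, Pf4 does not, and Ppbp and Cxcl15 lie near the bottom.

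Cxcl10, the interferon-induced CXCR3 ligand also called IP-10, had the largest log2 fold change of the 10 members in Model vs. Control. It lies at chr5:92346638-92348889 on the minus strand (ENSMUSG00000034855). It was at 0.505 and 29.2 FPKM in Control, 3154 and 1811 FPKM in Model, and 2314 and 1885 FPKM in MUS. The lowest stimulated library was thus more than an order of magnitude above the highest Control library. The log2 fold change was 8.47 (SE 1.22, limma adjusted p = 0.00655), and the Model level was 6246 times the Control level in batch 1 and 62.1 times in batch 2. The batch 1 ratio rests on 26 fragments in Control replicate 1.

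The Cxcl10 promoter is shown from base -250 to base -31 of the RefSeq start (GRCm38.p6, chr5:92348920-92349139, minus strand) because it combines words that the Cxcl1, Cxcl2 and Cxcl3 stretches do not. Capitals mark, from left to right, an ISRE core (GAAANNGAAA), NF-κB consensus matches at -159 to -150 and -103 to -94, and an AP-1 word (TGANTCA).
Cxcl10: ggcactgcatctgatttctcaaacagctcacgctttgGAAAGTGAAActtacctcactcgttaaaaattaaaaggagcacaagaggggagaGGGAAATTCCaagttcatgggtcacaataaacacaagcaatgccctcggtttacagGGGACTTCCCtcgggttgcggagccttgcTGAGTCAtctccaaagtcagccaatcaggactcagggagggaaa

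The ISRE core, the word bound by interferon-stimulated factors, spans bases -213 to -204 and occurred in 3.44% of all promoters, and the AP-1 word spans -74 to -68 and occurred in 7.81%. The first NF-κB match contains the 9-base word of Cxcl1, Cxcl2 and Cxcl3 on the opposite strand. Of the 7 members with a promoter in the RefSeq table (Cxcl1, Cxcl2, Cxcl3, Cxcl9, Cxcl10, Cxcl13 and Pf4), Cxcl10 was the only one with an ISRE core in this window. The GAS word (TTCNNNGAA), which 8.30% of promoters held, was found in none of the 7.

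Cxcl9, the interferon-γ-induced ligand MIG, shares CXCR3 with Cxcl10 but was expressed at a far lower level. It lies at chr5:92321347-92328079 on the minus strand (ENSMUSG00000029417). Its level was 0.769 and 2.52 FPKM in Control, 12.1 and 8.88 FPKM in Model, and 8.77 and 7.47 FPKM in MUS. The groups did not overlap, although Model replicate 2 and MUS replicate 1 were close to each other. Model was above Control by a log2 fold change of 2.19 (SE 0.35, limma adjusted p = 0.00896).

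Cxcl11, the third CXCR3 ligand, was at 0 FPKM in both Control libraries, 3.59 and 1.99 FPKM in Model, and 1.33 and 1.10 FPKM in MUS. It lies at chr5:92359544-92365485 on the minus strand (ENSMUSG00000060183) and is annotated as a polymorphic pseudogene, a class for genes that are intact in some mouse strains and disrupted in the reference. The cells here came from C57BL/6J mice. Whether their Cxcl11 transcript encodes an intact ligand was not tested and cannot be assumed. The stimulated libraries held 192, 117, 76 and 68 fragments, against 0 in Control. With 3 fragments per library as the limit that a count of 0 allows, the deposited scale gave at least 80.6-fold more in Model. For MUS it gave at least 35.1-fold more. With fragment-total scaling, which raises the Control limit, both bounds are lower. On the log2(FPKM + 1) scale, which understates such a change, Model exceeded Control by 1.89 (SE 0.27, limma adjusted p = 0.00671). Of the 50-base stretches of Cxcl11 transcripts, 40.4% also occur in transcripts of the overlapping antisense gene Gm2673, which was listed at 0 in all 6 libraries. The library protocol in the labels names no step that marks strand, and without strand the reads of such a pair cannot be told apart.

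Cxcl16, on chromosome 11, is a transmembrane chemokine that also serves as a scavenger receptor. It lies at chr11:70453983-70459984 on the minus strand (ENSMUSG00000018920). It was already abundant in Control, at 34.7 and 75.8 FPKM, and reached 211 and 141 FPKM in Model and 153 and 150 FPKM in MUS. Both Control libraries were below the 4 stimulated libraries. Cxcl16 rose in Model by a log2 fold change of 1.73 (SE 0.44, limma adjusted p = 0.0375), and the ratio was 6.08 in batch 1 and 1.86 in batch 2. With fragment-total scaling the log2 fold change was 1.188 and did not pass the test (limma adjusted p = 0.0592). Of its 3021 exonic bases, 552 overlap the antisense gene Zmynd15, which was at 2.75 to 12.5 FPKM. The sheddases Adam10 and Adam17, which release Cxcl16 from the membrane, were not DEGs in any of the 3 comparisons (0 of 2).

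Pf4 was the most abundant member in Control replicate 1 and lies between Cxcl5 and Cxcl3 at chr5:90772435-90773383 (plus strand, ENSMUSG00000029373). It was at 86.8 and 173 FPKM in Control, 273 and 129 FPKM in Model, and 131 and 105 FPKM in MUS. The 3 groups overlapped, with Control replicate 2 above Model replicate 2. Model differed from Control by a log2 fold change of 0.61 (95% interval -0.56 to 1.77, limma adjusted p = 0.418), and the Model level was 3.15 times Control in batch 1 and 0.743 times in batch 2. Markers of platelets and megakaryocytes were near 0, as the summed FPKM of Itga2b, Gp9, Gp1bb, Gp1ba and Treml1 was 0.848 to 1.57 in Control, 0.239 to 0.312 in Model and 0.231 to 0.347 in MUS, and Gp1bb was listed at 0 in all libraries.

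Cxcl13, the B cell attractant made by some peritoneal macrophages, was at 3.19 and 15.2 FPKM in Control, 12.9 and 8.25 FPKM in Model, and 7.25 and 7.87 FPKM in MUS. It lies at chr5:95956951-95961068 (plus strand, ENSMUSG00000023078), outside both clusters. The highest value of all was that of Control replicate 2 and the lowest that of Control replicate 1, so that all stimulated libraries lay between the Control libraries. Its fitted log2 fold change, Model against Control, was 0.46 (95% interval -0.91 to 1.83, limma adjusted p = 0.609). Without Control replicate 2 it was 1.43 and passed the test (limma adjusted p = 0.0276), and without Control replicate 1 it was -0.52 (limma adjusted p = 0.421).

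The promoters of the members that did not pass the test, Pf4 and Cxcl13, held none of the 5 motifs searched, on either strand, within 300 bases. Each of these motifs was held by at most 8.30% of all promoters, so lacking any given motif was the usual state. The share of promoters lacking all 5 was not counted, and a link between motifs and levels was not tested. They are shown over the same bases as those of Cxcl1, Cxcl2 and Cxcl3 for comparison, at chr5:90772325-90772404 for Pf4 and chr5:95956829-95956908 for Cxcl13 (GRCm38.p6, plus strand). Cxcl9, which rose, held only an AP-1 word, at bases 32 to 38 after the start.
Pf4: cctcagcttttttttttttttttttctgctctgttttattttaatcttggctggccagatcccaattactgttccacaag
Cxcl13: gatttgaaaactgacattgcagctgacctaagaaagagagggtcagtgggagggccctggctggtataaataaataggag

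The calls in Model vs. Control depended on the genes and libraries in the fit. Without the filter on low values, where 30192 genes were tested, none of the members was called (limma adjusted p from 0.0616 for Cxcl11 to 0.682 for Cxcl13), and 5 were called with quantile normalization, which lost Cxcl1, Cxcl3 and Cxcl16. Each fit with 1 library left out kept only 1 library in a group. Both the members called and the upward DEGs among all tested genes then became fewer, except without Control replicate 2, where both rose. Without Model replicate 1 the log2 fold changes of Cxcl9, Cxcl10 and Cxcl11 were 1.985, 8.071 and 1.58. Cxcl11 was at 0 FPKM in both Control libraries, so it passed the filter only through Model and MUS. Those equal values also gave Control no spread for this gene. Without Control replicate 1 the log2 fold changes of Cxcl1, Cxcl2, Cxcl3 and Cxcl10 were 3.04, 3.19, 3.17 and 6.31, and those of Cxcl5 and Cxcl16 were 1.23 and 1.17 and no longer passed the test (limma adjusted p = 0.0543 and 0.117). Without Control replicate 2 the values for Cxcl1, Cxcl2, Cxcl3 and Cxcl10 were 7.24, 7.07, 8.25 and 10.63. In batch 2 alone, where the Control level was higher, the ratio of Model to Control was 6.73 for Cxcl1, 7.06 for Cxcl2, 6.45 for Cxcl3, 2.97 for Cxcl5, 3.52 for Cxcl9 and 62.1 for Cxcl10.

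The MUS vs. Model comparison asks whether muscone given after LPS priming altered these transcripts. None of the 10 members was a DEG by limma on FPKM or by voom on recovered fragments, and 0% of all tested genes were DEGs by limma. The count for all tested genes moved with the fit. It was 7 with only the 2 groups compared, 4 with a replicate block and 1 with a pseudocount of 0.1, none of them a member. At an unadjusted p under 0.05, 1 member (Cxcl11) and 825 of all tested genes were found, and 5.81% of tested genes were lower in MUS by that rule. All 10 members had a log2 fold change below 0, as did 48.7% of the tested genes, although Cxcl10 turned to 0.23 with quantile normalization, and their median was -0.37 against 0.01 for all. Both MUS libraries were below both Model libraries for 5 members (Cxcl1, Cxcl5, Cxcl9, Cxcl11 and Cxcl13), as they were for 21% of tested genes.

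On the log2(FPKM + 1) scale, Cxcl1 had the most negative log2 fold change in MUS vs. Model, -0.91 (95% interval -3.67 to 1.85, limma adjusted p = 0.886). The MUS level of Cxcl1 was 0.437 times the Model level in batch 1 and 0.647 times in batch 2. The means were 520.3 ± 154 FPKM (SD, n = 2) in Model and 271 ± 5.99 FPKM (SD, n = 2) in MUS. The interval uses 1 spread estimated over all 3 groups, and the Control libraries were the ones farthest apart for this gene. With only Model and MUS in the fit, Cxcl1 did not pass the test either (limma adjusted p = 0.472).

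Cxcl11 followed with a log2 fold change of -0.74 (95% interval -1.39 to -0.10, unadjusted p = 0.0298, limma adjusted p = 0.517). Both Control libraries were at 0 FPKM for Cxcl11 and added no spread to the pooled estimate. Its interval and unadjusted p may therefore understate the error between Model and MUS. It was more negative than Cxcl1 with a pseudocount of 0.1 (-1.08 against -0.91) and with voom on fragments (-1.13 against -0.90). Its MUS level was 0.370 times Model in batch 1 and 0.554 times in batch 2. Pf4 had a log2 fold change of -0.67 (limma adjusted p = 0.764), with ratios of 0.478 and 0.816 in the 2 batches.

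Cxcl2, Cxcl3, Cxcl10 and Cxcl16 were lower in MUS in batch 1 only. Their ratios of MUS to Model were 0.790, 0.753, 0.734 and 0.727 in batch 1 and 1.03, 1.01, 1.04 and 1.06 in batch 2. In batch 1 the Model library was the one with the highest value of the 6 libraries for each of these 4 genes. It was also the library with the most genes holding a fragment (24906). The fitted log2 fold change of Cxcl2 was -0.15 with a 95% interval of -2.78 to 2.49, so changes of several fold in either direction were within the error. Cxcl5, Cxcl9 and Cxcl13 were lower in both batches, with log2 fold changes of -0.42, -0.32 and -0.41 (limma adjusted p = 0.872, 0.863 and 0.902).

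**Figure D3:**
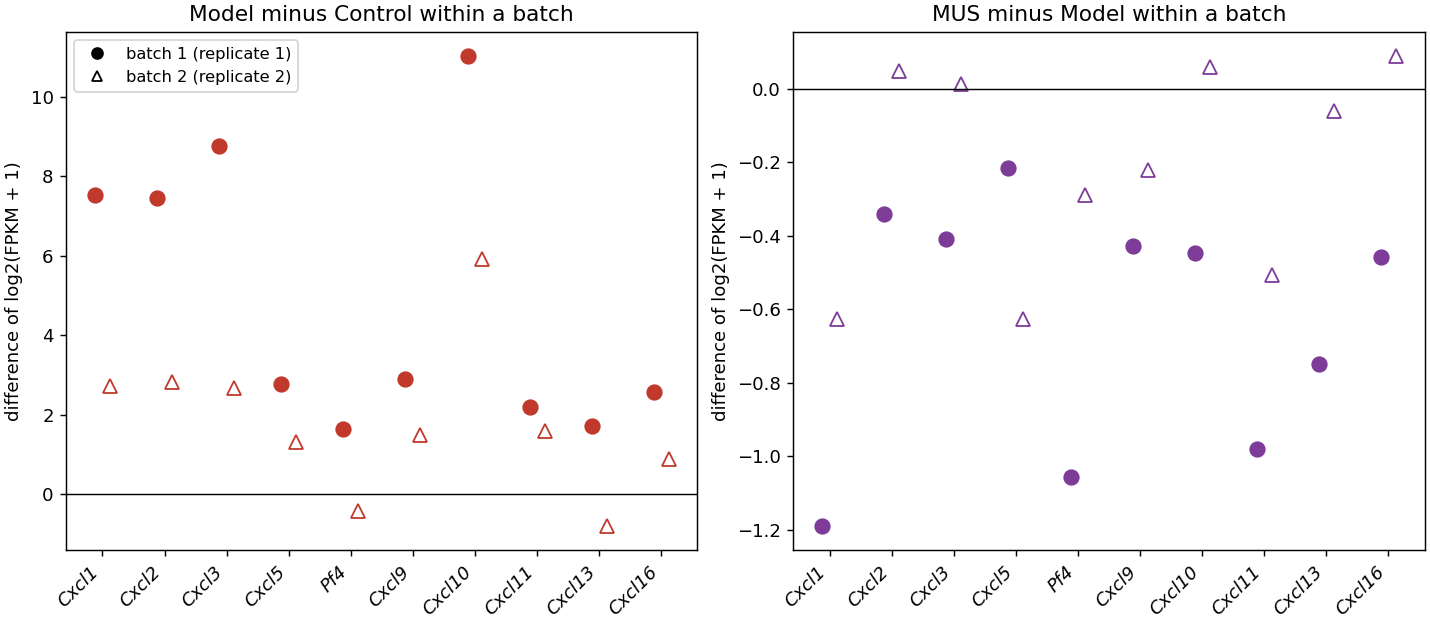
Difference of log2(FPKM + 1) between groups within batch 1 (filled circles) and batch 2 (open triangles) for each member, for Model minus Control on the left and MUS minus Model on the right, with separate scales. In MUS minus Model, Cxcl1, Cxcl5, Pf4, Cxcl9, Cxcl11 and Cxcl13 are below 0 in both batches, and Cxcl2, Cxcl3, Cxcl10 and Cxcl16 lie just above 0 in batch 2.

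MUS vs. Control shares its Control libraries with Model vs. Control, and its calls are given beside those of Model without being a separate line of evidence. In MUS vs. Control the same 8 members rose, where 11.3% of tested genes were upward DEGs and 8.91% were downward DEGs, the latter including none of the members. Here too the balance turned with the scaling, from 1107 upward and 873 downward DEGs to 738 and 1953 with fragment-total scaling and 758 and 2386 with voom. The log2 fold changes in MUS and in Model, each vs. Control, were 8.28 and 8.47 for Cxcl10, 5.51 and 5.71 for Cxcl3, 4.99 and 5.13 for Cxcl2, and 4.23 and 5.14 for Cxcl1. They were 1.87 and 2.19 for Cxcl9, 1.62 and 2.04 for Cxcl5, 1.54 and 1.73 for Cxcl16, and 1.15 and 1.89 for Cxcl11. Cxcl13 and Pf4 had values of 0.05 and -0.07 in MUS vs. Control (limma adjusted p = 0.959 and 0.937). Both MUS libraries were above both Control libraries for 8 members, against 39.6% of tested genes. Cxcl5 and Cxcl16 lost their calls with fragment-total scaling and with voom. With any single library left out, fewer members were called. Upward DEGs among all tested genes then rose without Control replicate 2 or either Model library and fell in the other fits.

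**Figure D4:**
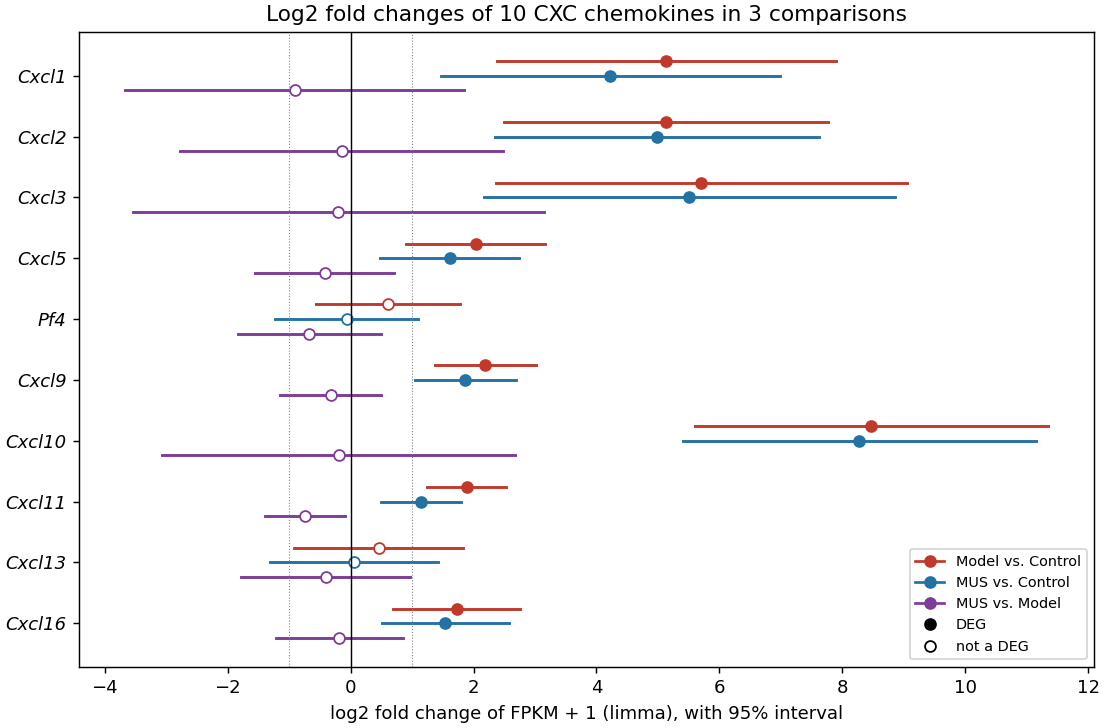
Log2 fold change of FPKM + 1 for each member in the 3 comparisons, with lines for the 95% interval from limma, filled circles for DEGs and open circles for genes that did not pass the test. Red and blue circles are filled and above 1 for 8 members, and all purple circles (MUS vs. Model) are open and lie between -0.91 and -0.15.

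The make-up of the family differed between Control and the stimulated groups. Because FPKM is per length, shares of the summed FPKM can be set beside each other. In Model, Cxcl2 made up 47.6% and 48.5% and Cxcl10 33.9% and 33.3% of the family's summed FPKM, and in MUS these were 51.2% and 50.2% for Cxcl2 and 33.9% and 34.6% for Cxcl10. In Control replicate 1, Pf4 (56.6%), Cxcl16 (22.6%) and Cxcl2 (15.9%) led, whereas in Control replicate 2 Cxcl2 held 48.1%, close to its share in Model, while Cxcl10 held 3.75%. The share of Cxcl1 was 6.77% and 7.57% in Model and 4.03% and 4.90% in MUS, values that did not overlap. Nor did those of Cxcl11 and Pf4, also lower in MUS, and of Cxcl2, higher in MUS. Those of Cxcl10 were barely apart, at 33.927% in Model replicate 1 and 33.933% in MUS replicate 1, and overlapped when counted in fragments. The shares of the other members overlapped. Shares within a family depend on one another, and whether they differ between Model and MUS was not tested. The lengths in the table join all annotated exons, retained introns included. With the length of the longest coding transcript in their place, Cxcl2 and Cxcl10 held 35.8% and 37.4% in Model, so their order depended on the length used. Counted in fragments, with no length, the mean share of Pf4 in Control was 17.7% in place of 39.5%, and in Control replicate 1 Cxcl16 (45.4%) then led Pf4 (27.1%).

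**Figure D5:**
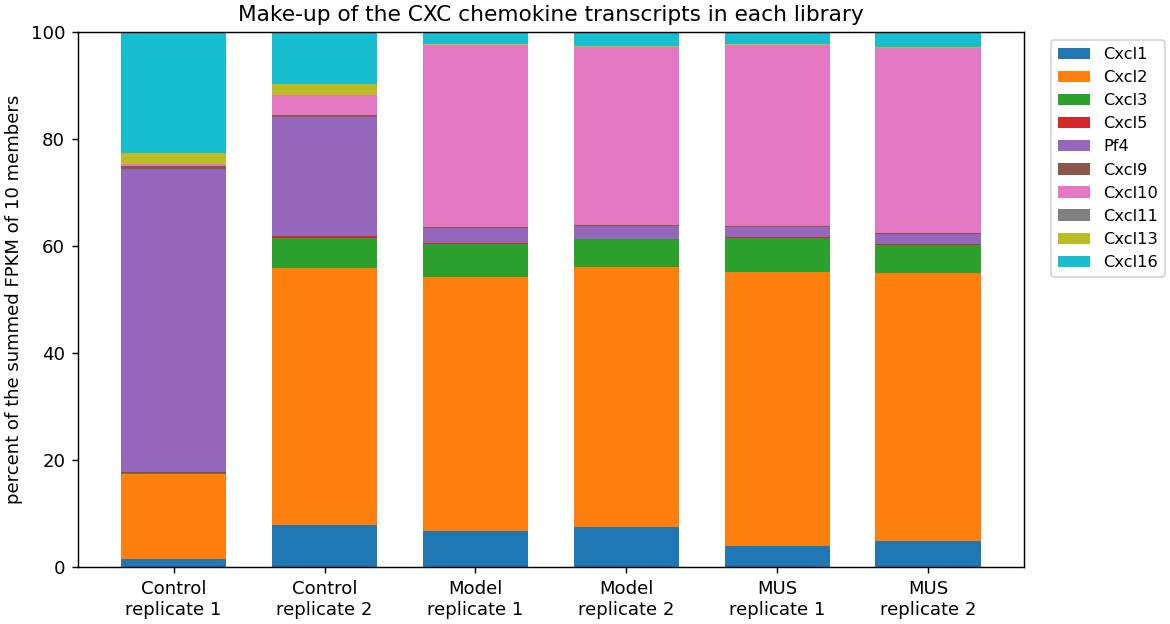
Percent of the summed FPKM of the 10 members held by each member, as a stacked bar for each of the 6 libraries. Cxcl2 and Cxcl10 fill most of each Model and MUS bar, Pf4 and Cxcl16 most of Control replicate 1, and Control replicate 2 shows a large Cxcl2 part with little Cxcl10.

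Ordered by mean FPKM in Model, Cxcl2 (3529.9 ± 1259.7, SD, n = 2) was followed by Cxcl10 (2482 ± 949.6), Cxcl1 (520.3 ± 154), Cxcl3 (427 ± 205), Pf4 (201 ± 102), Cxcl16 (176 ± 49.5), Cxcl13 (10.6 ± 3.27), Cxcl9 (10.5 ± 2.31), Cxcl5 (8.26 ± 0.711) and Cxcl11 (2.79 ± 1.13). The libraries of Cxcl2 and Cxcl10, of Cxcl1 and Cxcl3, of Pf4 and Cxcl16, and of Cxcl13 and Cxcl9 overlapped in level across the Model libraries. Within each Model library, however, Cxcl2 was above Cxcl10 and Cxcl1 above Cxcl3, while Pf4 and Cxcl16 changed places between the libraries, as their values were 273 and 211 FPKM in replicate 1 and 129 and 141 FPKM in replicate 2. Cxcl9 and Cxcl5 were separate but close, with 8.88 FPKM as the lower Cxcl9 value and 8.76 FPKM as the higher Cxcl5 value. Cxcl3 and Pf4 were also close, with 282 FPKM as the lower Cxcl3 value and 273 FPKM as the higher Pf4 value. Clear steps separated Cxcl10 from Cxcl1, Cxcl16 from Cxcl13, and Cxcl5 from Cxcl11.

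Most other CXC ligands and receptors were below the filter in these macrophages. Of 5 further CXC ligands (Ppbp, Cxcl12, Cxcl14, Cxcl15 and Cxcl17), only Cxcl14 passed the filter, and it fell in Model vs. Control by 1.73 on the log2 scale (limma adjusted p = 0.0309), from 14.5 and 5.26 FPKM in Control to 2.40 and 1.59 in Model. Of 8 receptors (Cxcr1 to Cxcr6, Ackr1 and Ackr3), only Cxcr4, the receptor of Cxcl12, passed the filter. Cxcr4 was at 79.8 and 19.2 FPKM in Control, 2.19 and 2.64 FPKM in Model, and 4.03 and 5.11 FPKM in MUS, and it fell by 3.57 on the log2 scale in Model vs. Control (limma adjusted p = 0.00937). The members' own receptors Cxcr2, Cxcr3, Cxcr5 and Cxcr6 stayed below the filter.

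Among 10 regulators on the NF-κB side, 8 rose in Model vs. Control, where 9.5% of all tested genes rose and 5.56% fell, and 2 did not pass the test. The rises included Nfkbiz (IκBζ, a nuclear co-activator) by 3.83, Tnfaip3 (the NF-κB inhibitor A20) by 3.29 and Nfkb2 by 2.79 on the log2 scale (limma adjusted p = 0.0106, 0.0120 and 0.0227). Among 11 genes of interferon signalling, 5 rose, 1 fell (Ifngr1, by 1.15 on the log2 scale, limma adjusted p = 0.0245) and 5 did not pass the test. On the interferon side, those that rose included Irf7 by 4.68 and Stat2 by 3.12 on the log2 scale (limma adjusted p = 0.00157 and 0.0129). The median log2 fold change was 2.46 for the NF-κB list and 1.43 for the interferon list, against 0.04 for all tested genes. In Control, replicate 2 exceeded replicate 1 for 9 of the 10 NF-κB genes and for 8 of the 11 interferon genes, against 53.2% of all tested genes. In MUS vs. Model, none of the 25 ligand, receptor, regulator and sheddase genes tested was a DEG by limma or by voom, and 1 (Rela, named after its values were seen) had an unadjusted p under 0.05.

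The genes outside the family whose profile over the 6 libraries was most like each member were found by the root mean square difference between centred log2(FPKM + 1) values. For Cxcl1 this was Tnf (0.119), which was at 8.62 and 183 FPKM in Control, 1510 and 1034 FPKM in Model, and 654 and 701 FPKM in MUS, followed by Ccl5 (0.293). For Cxcl10 it was Ptgs2, the inducible cyclooxygenase (0.213), followed by Il1b (0.579). Cxcl2 was nearest to Cd40 (0.284) and Hcar2 (0.308), Cxcl3 to Gbp5 (0.463) and Ccl5 (0.520), and Cxcl5 to H2-Q5 (0.158) and BE692007 (0.170). Cxcl9 was nearest to Pla2g16 (0.0949) and Tmco3 (0.125), Cxcl11 to Has1 (0.107) and Ccl24 (0.153), Cxcl13 to Rrs1 (0.199) and Smpdl3b (0.206), Cxcl16 to Gm13835 (0.0833) and Cept1 (0.119), and Pf4 to Chchd4 (0.136) and Rpl17-ps4 (0.141). Within the family, Cxcl1 and Cxcl2 were each other's nearest member (0.383), and Cxcl10 stood farthest from any other (1.33, to Cxcl3).

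Markers of other cells were mostly near 0. No gene of the T, B, NK, dendritic, mast cell or platelet lists passed the filter. Of 6 neutrophil markers 1 passed, S100a8, and their summed level was 13.5 to 30.9 FPKM in Control, 57.7 to 112 FPKM in Model and 50.8 to 64.6 FPKM in MUS, while S100a9, Ly6g and Elane were listed at 0 in all libraries. Of 6 mesothelial or fibroblast markers 3 passed, with a summed level of 11.8 to 13.2 FPKM in Control, 14.9 to 22.7 FPKM in Model and 13.8 to 15.8 FPKM in MUS. Of 3 eosinophil markers 1 passed, with a summed level of 2.46 to 4.06 FPKM in Control and 1.23 to 1.52 FPKM over the Model and MUS libraries. The 3 dendritic cell markers summed to 0.252 to 0.433 FPKM in Control, 1.11 to 1.78 FPKM in Model and 1.07 to 1.40 FPKM in MUS. The part of such cells in the chemokine values was not tested. In bulk RNA, more cells of a type and more RNA per cell cannot be told apart. Besides Cxcl11, the share of 50-base stretches that also occur in transcripts of other genes was 16.9% for Cxcl16 (Zmynd15), 5.84% for Cxcl2 and 4.29% for Cxcl3 (mostly in each other), 3.59% for Cxcl10 (Art3), and under 1% for the other 5 members.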

How the data were processed

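Poly-A RNA of 6 macrophage libraries was sequenced, and the authors deposited 1 table of FPKM per gene and library (0 columns without a sample). The study's methods credit RSEM, whereas the submitters' processing notes name HISAT2, featureCounts 1.5.0-p3 and GRCm39. The table's coordinates match GRCm38: 98.3% of 54409 shared identifiers had the same start and end in GENCODE M21. FPKM times length was a whole multiple of a step in 100% of values (tolerance 0.1 of the step), which gave fragments per gene. These cover counting error only.

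limma 3.58.1 (R 4.3.3) was fitted to log2(FPKM + 1) of the 9794 genes averaging 1 FPKM or more, with 3 groups in a single model, a mean-variance trend, 3 residual and 4.04 prior degrees of freedom, and Benjamini-Hochberg adjustment. The study's own test takes counts and was not run. The fit was tested on simulated data. Other steps used Python 3.11.15, NumPy 2.4.6, pandas 2.3.3 and Matplotlib 3.10.9. Promoters came from RefSeq (GRCm38.p6), with 7 of 10 members matched.

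The labels give the replicate number as the batch. Replicate differences correlated across genes by 0.119 between Control and Model, 0.136 between Model and MUS and -0.0928 between Control and MUS. The members and gene lists were chosen with earlier results of these data known. Named genes were all members, ligands and receptors past the filter, up to 3 regulators per list and direction with the largest change among DEGs, and the 2 genes nearest to each member in profile. Groups came from the sample labels. Alternatives were another pseudocount, filters, scalings, voom on fragments, a fit of only the groups compared, no trend, a replicate block and leaving out each library. The values of 1 regulator are not reported here.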

Additional observations from a re-analysis of the deposited data

How the results depend on the processing

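The number of members called in Model vs. Control was 8, against 0 with no filter on low values, 3 with only the groups compared in the fit, 5 with quantile normalization and 1 to 9 with single libraries left out. For MUS vs. Control it was 8, against 0 with no filter, 5 with a pseudocount of 0.1, 5 with only the groups compared, 5 with quantile normalization and 0 to 7 with single libraries left out. For the other CXC system genes, the 16 called in Model vs. Control became 2 with no filter, 9 with only the groups compared and 4 to 20 with libraries left out, and the 15 called in MUS vs. Control became 2 with no filter and 2 to 18 with libraries left out. The replicate block gave 8, 0 and 8 members called in Model vs. Control, MUS vs. Model and MUS vs. Control, and changed no call of a member. No alternative called a member in MUS vs. Model. With no filter 30192 genes were tested; the other causes were not tested.

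Directions turned only for log2 fold changes that had not passed the test. Cxcl13 in Model vs. Control was -0.01897 with fragment-total scaling, -0.005013 with voom and -0.5195 to 1.434 with libraries left out. In MUS vs. Control it was -0.4133, -0.4431 and -0.925 to 1.028 in these settings and -0.03966 with quantile normalization. Quantile normalization gave -0.3 for Pf4 in Model vs. Control and 0.2343 for Cxcl10 in MUS vs. Model. With libraries left out, the values in MUS vs. Model were -0.5179 to 0.2261 for Cxcl2, -0.7079 to 0.3106 for Cxcl3, -0.5943 to 0.2058 for Cxcl10 and -0.4739 to 0.105 for Cxcl16, and Pf4 in MUS vs. Control was -0.5601 to 0.4273. The share of Cxcl2 in Model was 45.46% of fragments and 35.76% by coding length, that of Cxcl10 was 34.64% and 37.43%, and that of Pf4 in Control was 17.74% and 39.11%, against 39.45% of FPKM. The coding length was chosen after seeing the data. With a filter at a mean of 5 FPKM, Cxcl11 was not tested. With 2 libraries per group, differences such as those between MUS and Model were within the error for most members, and fragment counts of Cxcl11 and of the Control libraries limit their ratios.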
